A study of Mus musculus with 12 samples.

Results

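In mouse embryonic stem cells, 181 gene names had a probe that read higher after p400 knockdown and nearly the same after Tip60 knockdown. Both were judged by a rule applied to the deposited log2 values of each array probe. Other probes of the same gene often differed, as described further on. The rule took probes whose mean log2 ratio of p400 KD over EGFP control was at least 0.8 on 4 arrays, whose mean Tip60 KD level lay within 0.25 of the EGFP mean on the log2 scale, and whose EGFP mean was at least 8. Probes whose name in the file begins with Zfp, Krt, Olfr or Hist were left out. The rule found 197 of 41174 probes, which stand for 181 of the 27670 gene names on the array, or of 12098 names with an eligible probe, one whose EGFP mean was at least 8 and whose name was not left out. The members were chosen by the p400 KD ratios and by the Tip60 KD and EGFP levels, so the sizes of both effects are given as a description, and no test is offered as support. The RNA came from bulk cultures, in which more cells of a type and more RNA per cell cannot be told apart.

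The cells were E14, a mouse embryonic stem cell line, and each sample was a single culture well. Cells were transfected with esiRNA at 0.33 ng/µl by a lipid reagent and collected after 72 hr; esiRNA is a mixture of siRNAs cut enzymatically from a long double-stranded RNA. In the p400 KD group the esiRNA targeted p400 (gene Ep400), in the Tip60 KD group Tip60 (gene Kat5, Htatip on the array), and in the EGFP control group EGFP, a reporter gene, so all groups carried an esiRNA. The p400 KD RNA shared 4 two-colour arrays, all on slide 1, with EGFP RNA, with the p400 RNA in Cy5 on replicates 1 and 3 and in Cy3 on replicates 2 and 4. Tip60 KD (4 arrays) and EGFP control (4 arrays) were measured separately in 1 colour on slides 2 and 3, and Tip60 KD replicate 3 was excluded by the submitters as an outlier and is used here only where named. The 2 knockdowns were therefore measured in different array formats against different EGFP arrays.

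p400 is an ATPase of the SWI/SNF family that remodels nucleosomes, and Tip60 is an acetyltransferase that modifies histones. In mammals both sit in the Tip60-p400 complex, which acetylates histones and exchanges histone variants at promoters. In embryonic stem cells the complex is known both as a repressor of developmental genes and as a factor that self-renewal needs. The members are probes on which the 2 knockdowns gave different values, and the difference between the knockdowns was not tested because the array formats differ.

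The targeted genes were checked first. The Ep400 probes with the highest signal had mean log2 ratios of -0.57 and -0.81 in p400 KD over EGFP control. The first read -0.65, -0.75, -0.24 and -0.65 on replicates 1 to 4. The second read 0.04, -1.12, -0.58 and -1.57, lower on both Cy3 arrays than on the Cy5 arrays. The dimmer Ep400 probes averaged 0.17 and 0.04, and the files do not say which part of the transcript the esiRNA covers. The Kat5 probe read 10.08, 10.00 and 10.05 on Tip60 KD replicates 1, 2 and 4, against 11.45, 11.35, 11.54 and 11.60 on EGFP controls 1 to 4. Kat5 also had a mean log2 ratio of -0.45 in p400 KD. All 20 pluripotency markers on the array were above background on at least 1 EGFP array, and the p400 KD log2 ratio averaged 0.04 for Pou5f1, -0.21 for Sox2 and 0.11 for Nanog. Of 14 feeder fibroblast markers, Col6a1, Dcn, Lum and Postn were above background on none of the EGFP arrays, and the others were above it on at least 1.

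Most members lay close to the lower limit of the rule in p400 KD. Their mean log2 ratio in p400 KD ran from 0.80 to 2.09 with a median of 0.94, beside a median of 0.00 over the 17198 eligible probes. The mean was under 1 for 128 probes, from 1 to 1.5 for 64 and at least 1.5 for 5. On every p400 KD array 190 member probes were above 0, and 161 were above 0.5; among eligible probes 25.3% and 5.33% met these criteria, and since the rule used the same ratios nothing is read from the difference. The array medians over the members were 0.88, 0.97, 1.11 and 0.88 for replicates 1 to 4, and the median SD of a member over the 4 arrays was 0.24. In a limma fit of the scanner signals, 197 of 197 member probes were called higher in p400 KD at an adjusted p under 0.05, where 33.1% of all 27962 probes tested were called, 18.1% higher and 15% lower. That fit had a term for the dye orientation. Without the term 188 member probes were called higher, where 28.3% of all probes tested were called. The overall split depended on the scaling: 5052 were higher and 4208 lower after loess, 3917 and 9584 after median centring, 5251 and 6918 in the deposited LogRatio, and 2469 and 929 with arrays scaled to a common spread. The median log2 ratio of the members in that fit was 0.87, beside a median of -0.005 over all probes tested.

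**Figure D1:**
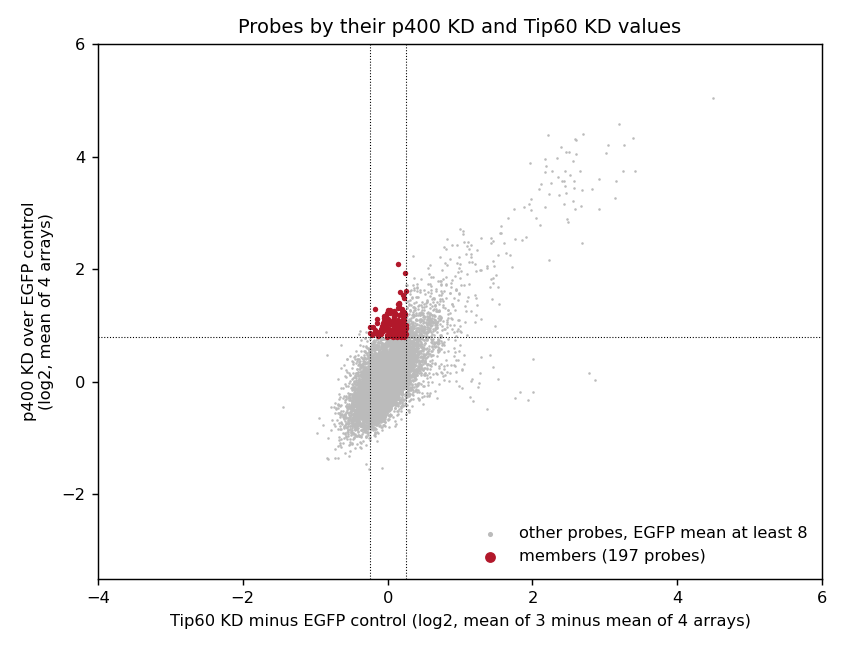
Each point is a probe with an EGFP mean of at least 8. The x axis gives the Tip60 KD minus EGFP control level and the y axis the p400 KD over EGFP control ratio, both log2; dotted lines mark the rule's limits of -0.25, 0.25 and 0.8, and the 197 member probes (red) fill the box above 0.8, more densely on its right side.

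Most probes with a p400 KD ratio of at least 0.8 were also higher in Tip60 KD. Of 800 such eligible probes, 599 lay above the window of 0.25 in Tip60 KD and 4 lay below -0.25, which left the 197 members. The members were thus the minority of the probes past 0.8 whose Tip60 KD level stayed near the control.

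Within the window more members read above the EGFP mean in Tip60 KD than below it. Their Tip60 KD minus EGFP difference had a median of 0.13, beside -0.04 over the eligible probes, and it was above 0 for 153 of 197 probes, or 77.7%, beside 41.5% of eligible probes. The eligible probes were limited neither to the window nor by their p400 KD ratio, so nothing is read from this contrast. The members' Tip60 KD difference was 0.1 or more for 117 probes, between -0.1 and 0.1 for 64, and below -0.1 for 16. The 3 Tip60 KD and 4 EGFP levels did not overlap for 47 member probes, 42 of them with Tip60 KD above EGFP, and 28.3% of eligible probes did not overlap. In the limma fit of the scanner signals 40 member probes were called higher in Tip60 KD and 0 lower, where 22.7% of the 25317 probes tested were called, 13.2% higher and 9.46% lower, and 9.18% of eligible probes were called higher. The rule used these levels, so nothing is read from these counts. Over all probes the Tip60 KD split was 3348 higher and 2395 lower, but 2242 and 2776 with normexp and quantile normalization, 2698 and 3818 with quantile normalization alone, 2192 and 2684 on matrix values, and 2907 and 3013 with replicate 3 included. In the limma fit of the scanner signals the Tip60 KD log2 difference lay within 0.25 for 161 of the 197 member probes. The member calls included 3830417A13Rik, Igf2, Fam171b, Mfsd2a and Nup155. All 5 of these calls were lost with no filter, on slide 2 only and without Tip60 KD replicate 4, and all but that of Igf2 were lost with normexp and quantile normalization and on matrix values, with the direction kept. The median was above 0 on both slides. On slide 2 (2 Tip60 KD and 2 EGFP arrays) the members had a median difference of 0.13 and 180 of 197 within 0.25, and on slide 3 (1 Tip60 KD and 2 EGFP arrays) a median of 0.11 and 175 within 0.25. With slide as a block in the limma fit, 51 member probes were called, 1 of them lower, and on slide 2 alone 0 were called in the limma fit, where 49 had an unadjusted p under 0.05.

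The largest p400 KD ratio belonged to 3830417A13Rik, an X-linked gene. It was 2.05, 2.04, 2.23 and 2.03 on p400 KD replicates 1 to 4, a mean of 2.09 ± 0.10 (SD, n = 4) or 4.25-fold. The Tip60 KD levels were 10.61, 10.67 and 10.69, against EGFP levels of 10.51, 10.44, 10.56 and 10.52. All 4 p400 KD arrays were close together, and the Tip60 KD levels lay just above all EGFP levels. A second member probe of the gene averaged 1.39 in p400 KD.

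Igf2, an imprinted insulin-like growth factor of the fetus, had p400 KD ratios of 1.80, 2.10, 1.89 and 1.93, a mean of 1.93 ± 0.13 (SD, n = 4). Its Tip60 KD levels were 12.77, 12.91 and 12.85, against EGFP levels of 12.61, 12.58, 12.66 and 12.57. The Tip60 KD levels again lay above every EGFP level, at a difference of 0.24, close to the limit of the rule. Another Igf2 probe had a p400 KD mean of 1.72 and missed membership with a Tip60 KD difference of 0.251.

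Fam171b had p400 KD ratios of 1.41, 1.78, 1.57 and 1.68, with Tip60 KD levels of 9.5, 9.31 and 9.45 against EGFP levels of 9.04, 9.25, 9.07 and 9.32. Mfsd2a, a transporter of lysophospholipids that carry docosahexaenoic acid, had p400 KD ratios of 1.49, 1.91, 1.41 and 1.57, with Tip60 KD levels of 8.98, 8.75 and 8.92 against EGFP levels of 8.70, 8.80, 8.68 and 8.66. For both genes all p400 KD ratios were well above 0, whereas the Tip60 KD and EGFP levels overlapped.

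Lor encodes loricrin, a main protein of the cornified envelope of skin. Its p400 KD ratios were 1.61, 1.64, 1.64 and 1.26, with Tip60 KD levels of 10.12, 9.79 and 10.04 against EGFP levels of 9.55, 9.95, 9.64 and 9.93. Replicate 4 was the low p400 KD array, and the single-colour groups overlapped. Nup155, a structural protein of the nuclear pore, had p400 KD ratios of 1.26, 1.69, 1.61 and 1.38, with Tip60 KD levels of 8.69, 8.65 and 8.83 against EGFP levels of 8.66, 8.45, 8.52 and 8.36. Its groups overlapped between 8.65 in Tip60 KD and 8.66 in EGFP control, but the limma fit called Nup155 higher in Tip60 KD, at 0.37. Other Nup155 probes did not share the p400 KD ratio, as described further on.

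Dcaf12l1 had p400 KD ratios of 1.26, 1.63, 1.29 and 1.42, with Tip60 KD levels of 10.94, 10.73 and 10.98 against EGFP levels of 10.67, 10.80, 10.70 and 10.75. Stra8, a retinoic acid target that germ cells need to enter meiosis, had p400 KD ratios of 1.35, 1.55, 1.35 and 1.30, with Tip60 KD levels of 13.69, 13.78 and 13.78 against EGFP levels of 13.58, 13.55, 13.70 and 13.55. The Tip60 KD and EGFP levels overlapped for both genes. The Stra8 mean of 1.39 ± 0.11 (SD, n = 4) was tight over the p400 KD arrays.

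Rexo1, an RNA exonuclease, had p400 KD ratios of 1.60, 0.81, 1.70 and 1.38, with Tip60 KD levels of 9.79, 9.85 and 9.65 against EGFP levels of 9.49, 9.68, 9.78 and 9.53. Fgf18, a secreted fibroblast growth factor, had p400 KD ratios of 1.38, 1.12, 1.45 and 1.26, with Tip60 KD levels of 11.72, 11.89 and 11.74 against EGFP levels of 11.64, 11.74, 11.70 and 11.49. Replicate 2 was the lowest array for both genes, by a wide margin for Rexo1. Egr4, a zinc finger transcription factor of the immediate early class, had p400 KD ratios of 1.27, 1.39, 1.20 and 1.31, with Tip60 KD levels of 9.05, 9.08 and 9.19 against EGFP levels of 9.19, 9.22, 9.42 and 9.28. Egr4 was on the lower side in Tip60 KD, where its highest array equalled the lowest EGFP array.

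**Figure D2:**
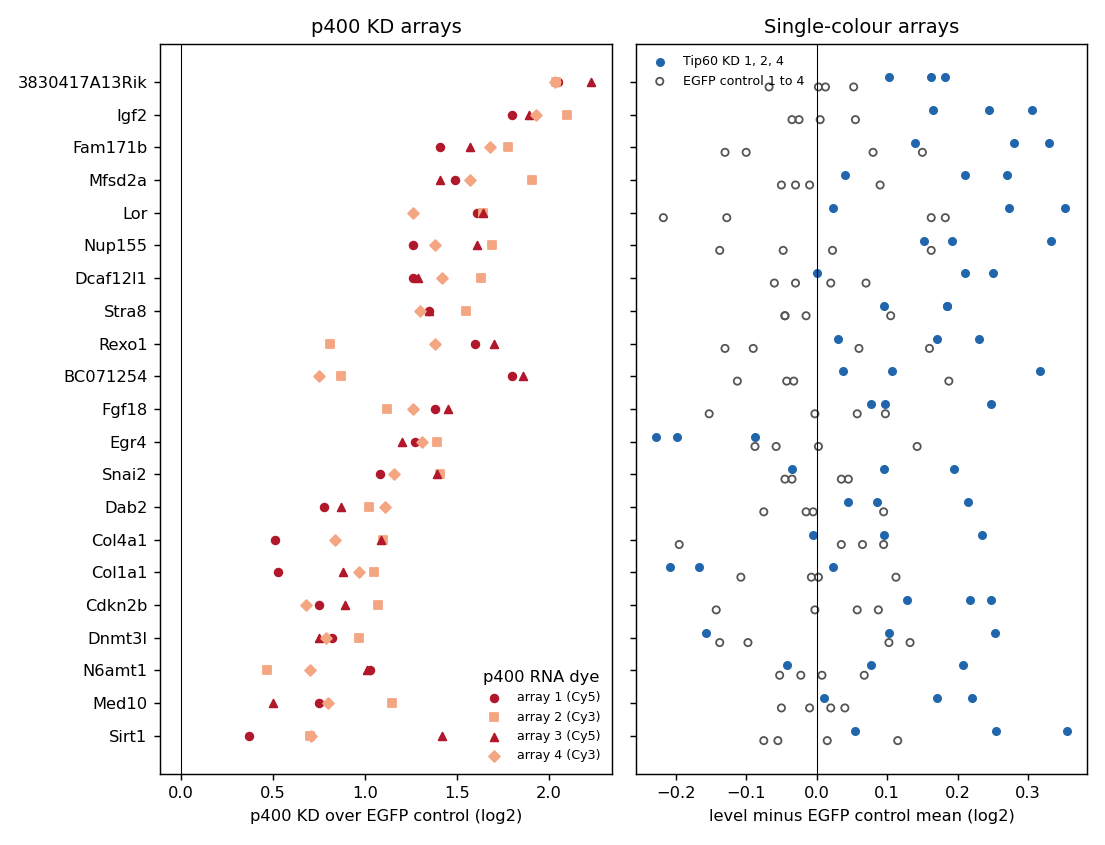
The left panel gives the log2 ratio of p400 KD over EGFP control on each of 4 arrays for 21 member genes, with the dye of the p400 RNA in the legend, and the right panel the Tip60 KD (filled) and EGFP control (open) levels minus the EGFP mean, both log2. The 12 genes with the largest p400 KD means are at the top, members of the gene lists follow and the 3 genes with the smallest means are at the bottom; BC071254 and Rexo1 show the widest p400 KD spread among the first 12.

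These 4 promoter sequences were chosen to show member genes with different motif content, each over the 250 bases before the RefSeq start on build GRCm38.p6, 5′ to 3′ on the gene's strand. Capitals mark matches, on either strand, to the AP-1 motif TGACTCA and the TATA box TATAAA in Lor, the CCAAT box CCAAT in Stra8, the cAMP response element core TGACGT in Egr4 and the GC box GGGCGG in Upf2, whose matches partly overlap. The windows are chr3:92083143-92083392 on the minus strand for Lor, chr6:34920698-34920947 on the plus strand for Stra8, chr6:85513590-85513839 on the minus strand for Egr4 and chr2:5951219-5951468 on the plus strand for Upf2.
Lor: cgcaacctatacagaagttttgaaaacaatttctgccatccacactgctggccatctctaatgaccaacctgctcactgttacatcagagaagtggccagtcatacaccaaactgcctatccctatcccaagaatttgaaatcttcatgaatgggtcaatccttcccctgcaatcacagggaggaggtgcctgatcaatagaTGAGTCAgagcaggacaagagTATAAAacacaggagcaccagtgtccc
Stra8: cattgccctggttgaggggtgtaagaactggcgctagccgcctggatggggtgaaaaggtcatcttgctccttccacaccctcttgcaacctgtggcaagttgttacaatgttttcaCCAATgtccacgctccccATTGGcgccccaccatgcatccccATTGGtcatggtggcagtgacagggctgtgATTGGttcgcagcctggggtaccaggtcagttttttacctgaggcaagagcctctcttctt
Egr4: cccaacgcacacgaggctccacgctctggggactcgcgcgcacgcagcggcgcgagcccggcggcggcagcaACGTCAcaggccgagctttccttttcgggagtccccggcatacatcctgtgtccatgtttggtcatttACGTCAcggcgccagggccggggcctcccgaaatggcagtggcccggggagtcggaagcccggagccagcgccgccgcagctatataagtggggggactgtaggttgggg
Upf2: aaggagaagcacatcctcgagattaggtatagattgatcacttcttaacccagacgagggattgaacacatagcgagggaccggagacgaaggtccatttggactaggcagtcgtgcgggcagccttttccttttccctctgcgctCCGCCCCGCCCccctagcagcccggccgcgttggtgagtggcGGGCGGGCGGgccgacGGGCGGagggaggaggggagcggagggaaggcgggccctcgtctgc
Lor has the AP-1 match 48 and the TATA box 27 bases before the start, and Stra8 has 4 CCAAT matches between 133 and 61 bases before it. Egr4 has its matches at 178 and 110 bases, and Upf2 has 5 GC box matches between 104 and 46 bases.

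The motifs and base composition of these windows were counted over all member genes with a RefSeq promoter window of 300 bases, 131 of 181, with the first listed window per gene. The median CpG ratio, observed over expected, was 0.767 in members, 0.784 in 8501 other genes with an eligible probe and 0.389 over all 27025 promoters. The GC share was 62.3%, 61.3% and 52.7% in the same order. A TATA box was present in 12.2% of members (16 promoters), in 6.73% of the other eligible genes and in 14.2% of all promoters. A CCAAT box was present in 31.3%, 39.4% and 37.9%, and a GC box in 66.4%, 67.2% and 35.9%. An E-box (CACGTG) was present in 6.11% (8 member promoters), 10.8% and 7.24%, and an AP-1 match in 5.34% (7 member promoters), 3.28% and 5.17%. The cAMP response element core was present in 8.40% (11 member promoters), 12.7% and 7.64%. The ETS motif CCGGAAG was present in 13.7% (18 member promoters), 19.5% and 9.12%. The members' promoters were thus close to those of the other genes with an eligible probe in median CpG ratio, GC share and GC boxes. Against those genes, TATA boxes and AP-1 matches were more frequent. CCAAT boxes, E-boxes, cAMP response element cores and ETS motifs were less frequent. The TATA box share was below that of all promoters, and these shares were not tested.

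By role, assigned after the values were seen, 132 of the 181 genes fell into 12 groups. Most groups overlapped in p400 KD ratio. Of the remaining 49 genes, some were known only by a clone or model identifier.

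Transcription factors and cofactors were the largest group, with 22 genes at a median p400 KD ratio of 1.0 (0.80 to 1.29) and a median Tip60 KD difference of 0.15. Besides Egr4, it held Pou3f1, a POU factor of the epiblast and neural lineage, at 1.04, 1.46, 1.63 and 0.97 on replicates 1 to 4. Pou3f1 levels were 14.48, 14.73 and 14.67 in Tip60 KD, against 14.68, 14.55, 14.63 and 14.61 in EGFP control. The Tip60 KD levels lay on both sides of the EGFP levels. Wt1, a factor of kidney and gonad development, averaged 1.06, and Sox11, a neural SRY-box factor, 1.02. Mycn, a proto-oncogene of the Myc family, averaged 0.82, and Id2, an inhibitor of helix-loop-helix factors, 0.99. Cited2, a coactivator that binds CBP and p300, averaged 0.88 with a Tip60 KD difference of -0.17. The 3 members whose current symbol begins with Zfp, Zfp599, Zfp949 and Zfp951, carry other names in the file and so passed the exclusion by name.

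The secreted or membrane-bound ligands were 8 genes at a median of 1.04 (0.86 to 1.93). Besides Igf2 and Fgf18, Metrnl, a secreted meteorin-like protein, averaged 1.27. Fgf5, a fibroblast growth factor of the primitive ectoderm, had p400 KD ratios of 0.76, 1.01, 1.03 and 0.89, with Tip60 KD levels of 9.44, 9.43 and 9.56 against EGFP levels of 9.36, 9.45, 9.39 and 9.43. The Tip60 KD and EGFP levels of Fgf5 overlapped. Dhh, a hedgehog ligand, averaged 0.95, Efnb1, an ephrin, 1.12, Thpo, the growth factor thrombopoietin, 0.87, and Dlk1, an imprinted Notch-related ligand, 0.86. Another Thpo probe averaged -0.38 in p400 KD. For Dlk1 the Tip60 KD levels of 10.51, 10.50 and 10.59 lay below all EGFP levels of 10.69, 10.63, 10.70 and 10.74, at a difference of -0.16.

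Among the 10 receptors and surface proteins the median was 0.94 (0.83 to 1.18) and the median Tip60 KD difference was -0.01. Tenm4, a teneurin of cell adhesion, averaged 1.18, Calcr, the calcitonin receptor, 1.09, and Ptprg, a receptor tyrosine phosphatase, 1.08. Lgr4, a receptor of R-spondins in Wnt signalling, averaged 0.94 at the member probe and -0.16 and 0.06 at other probes, Unc5b, a netrin receptor, 0.84 and Cdh4, a cadherin, 0.83.

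The signalling regulators were 18 genes at a median of 0.90 (0.80 to 1.23), several of them feedback inhibitors of receptor tyrosine kinase signalling. Dusp2, a phosphatase of MAP kinases, had p400 KD ratios of 1.29, 1.22, 0.89 and 0.85, and Spry2, a Sprouty inhibitor, 0.66, 0.82, 0.93 and 1.03. Errfi1, an inhibitor of the EGF receptor, had ratios of 0.38, 0.92, 0.96 and 0.96. All 3 genes were above 0 on every array, and their Tip60 KD differences were 0.08 for Dusp2, 0.13 for Spry2 and 0.05 for Errfi1. Pim2, a serine kinase, averaged 0.83, and a probe that starts 3 bases away and is named only by a transcript model averaged 0.845. Cdkn2b, an inhibitor of cyclin-dependent kinases, had p400 KD ratios of 0.75, 1.07, 0.89 and 0.68, with Tip60 KD levels of 10.47, 10.38 and 10.50, all above the EGFP levels of 10.31, 10.34, 10.11 and 10.25.

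The chromatin group held 8 genes at p400 KD means from 0.80 to 1.19. Dnmt3a, a de novo DNA methyltransferase, had p400 KD ratios of 1.09, 0.72, 1.78 and 1.18 at one member probe and a mean of 0.88 at another, while a further Dnmt3a probe averaged -0.18. Dnmt3l, its catalytically inactive partner and a marker of the pluripotent state, had ratios of 0.82, 0.97, 0.75 and 0.79, with Tip60 KD levels of 16.49, 16.23 and 16.64 against EGFP levels of 16.52, 16.29, 16.25 and 16.49. The Dnmt3l levels of Tip60 KD and EGFP covered the same range. Phc1, a Polycomb protein, averaged 0.96 and 0.83 at its member probes, and Kdm5b, a histone demethylase, 0.92. Another probe averaged 0.513 for Phc1 and 0.358 for Kdm5b. Rif1, a regulator of replication timing, averaged 1.15, with 0.62 and 0.67 on replicates 1 and 2 and 1.76 and 1.53 on replicates 3 and 4. Another Rif1 probe averaged 0.31. Med10, a Mediator subunit, had ratios of 0.75, 1.15, 0.50 and 0.80 and Sirt1, a deacetylase, 0.37, 0.70, 1.42 and 0.71, both with a mean of 0.80 at the limit of the rule. Another Sirt1 probe averaged 0.672. Outside the chromatin group, N6amt1, a methyltransferase, was the next lowest gene, with ratios of 1.03, 0.47, 1.01 and 0.70. The levels in Tip60 KD and EGFP control overlapped for all 3 genes. Med10 read 14.96, 14.80 and 15.01 in Tip60 KD, against 14.83, 14.78, 14.74 and 14.81 in EGFP control. Sirt1 read 13.10, 13.20 and 12.90 in Tip60 KD, against 12.79, 12.86, 12.96 and 12.77 in EGFP control. N6amt1 read 11.82, 12.07 and 11.94 in Tip60 KD, against 11.81, 11.87, 11.93 and 11.84 in EGFP control.

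RNA processing and translation gave 21 genes at a median of 0.96 (0.84 to 1.37). Upf2, a factor of nonsense-mediated decay, had p400 KD ratios of 0.66, 1.43, 1.59 and 1.22. Eif5, a translation initiation factor, averaged 1.11, Eif5b 0.88, Ddx21, a nucleolar helicase, 1.05, and Bclaf1, a splicing-associated protein, 1.07. Their other probes with an EGFP mean of at least 8 were lower. They averaged 0.165 and 0.53 for Eif5, 0.21 to 0.59 for Eif5b, 0.305 and 0.53 for Ddx21, and -0.09 and 0.295 for Bclaf1. Noct, a deadenylase-related circadian protein, averaged 1.09, Pabpc4, a poly(A)-binding protein, 0.94, and Cnot3, a subunit of the CCR4-NOT deadenylase, 0.86. Another probe averaged 0.38 for Pabpc4 and 0.44 for Cnot3.

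The cytoskeleton, matrix and membrane traffic group held 16 genes at a median of 0.92. Besides Lor, Gsn, the actin-severing gelsolin, averaged 1.19, and Pdlim5, an actin-associated PDZ-LIM protein, 1.1 and 1.03 at its member probes. Myh7, a cardiac myosin heavy chain, was even over the arrays at 0.92, 0.97, 0.88 and 0.89. The 15 transport and metabolism genes had a median of 0.92 and included Slc40a1, the iron exporter ferroportin (1.09), Slc5a4b (1.21), Cyp26a1, which degrades retinoic acid (0.96), Alas1, the first enzyme of haem synthesis (0.86), and Pank3, a pantothenate kinase, with p400 KD ratios of 0.82, 0.81, 0.80 and 0.82. The 7 ubiquitin genes, among them Cdc27 of the anaphase-promoting complex (1.05), Cand1, a cullin regulator (0.89), and Fbxo32, an F-box protein (0.94), had a median of 0.88. The germ line genes Stra8, Dnajb3 and Nlrp4f had p400 KD means of 1.27 to 1.39.

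**Figure D3:**
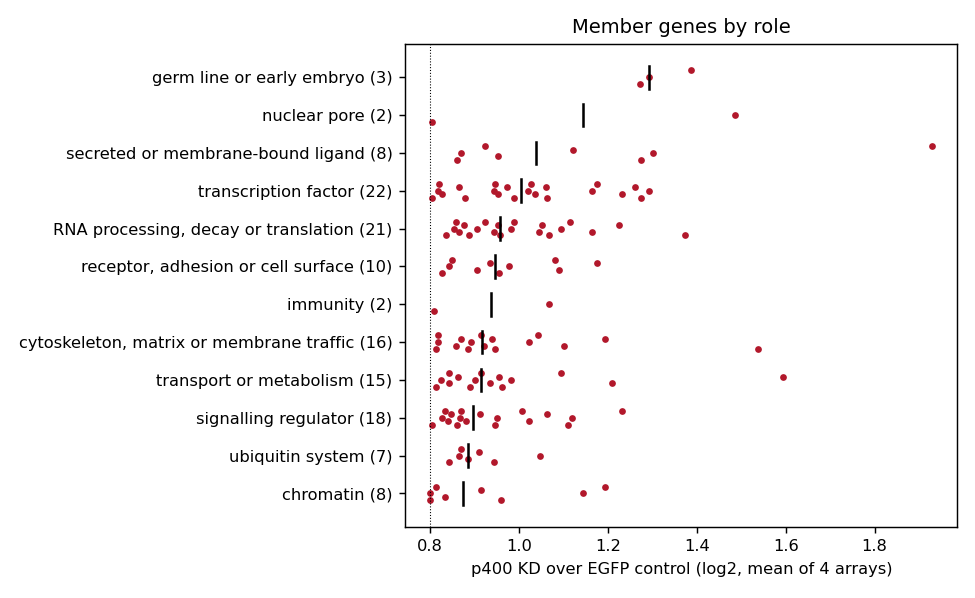
Each point is a member gene, by role, at its mean log2 ratio of p400 KD over EGFP control on 4 arrays (x axis, from the rule's limit of 0.8, dotted), and the bar is the median of the group. The number of genes stands in brackets, and the groups of the largest size overlap over most of their range.

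Of 24 lists of pathway and cell type genes, 6 held a member and 18 held none. The 7 genes were Stra8 (germ cell), Snai2 (mesoderm), Dab2 and Col4a1 (primitive endoderm), Col1a1 (feeder fibroblast), Cdkn2b (cell cycle inhibitors) and Dnmt3l (pluripotency). Snai2, a zinc finger factor of mesoderm and neural crest, had p400 KD ratios of 1.08, 1.41, 1.39 and 1.16, with Tip60 KD levels of 8.98, 8.85 and 9.08 against EGFP levels of 8.84, 8.92, 8.93 and 8.85. Dab2, an endocytic adaptor, had ratios of 0.78, 1.02, 0.87 and 1.11, with Tip60 KD levels of 8.69, 8.73 and 8.86 against EGFP levels of 8.74, 8.63, 8.57 and 8.64. Both had overlapping single-colour levels, but the limma fit of the scanner signals called Dab2 higher in Tip60 KD, at 0.24. That call was lost on matrix values (0.11) and with normexp and quantile normalization (0.13). Col4a1, a basement membrane collagen, had ratios of 0.51, 1.1, 1.09 and 0.84, with Tip60 KD levels of 9.88, 9.64 and 9.74 against EGFP levels of 9.68, 9.71, 9.45 and 9.74. Col1a1, a fibrillar collagen, had ratios of 0.53, 1.05, 0.88 and 0.97, with Tip60 KD levels of 10.00, 10.04 and 10.23 against EGFP levels of 10.21, 10.32, 10.10 and 10.20. Both collagens were lowest on replicate 1 of p400 KD and overlapped between Tip60 KD and EGFP.

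The lists of these members, with each gene at its brightest probe, were called as follows in the limma fits, where 20.1% of all genes were called higher and 15% lower in p400 KD, and 15.3% and 10.3% in Tip60 KD. Of 14 primitive endoderm genes tested, 9 rose and 0 fell in p400 KD, and 8 of 13 rose and 0 fell in Tip60 KD. Of 17 germ cell genes, 11 rose and 2 fell in p400 KD, and 7 rose and 1 fell in Tip60 KD. Of 10 mesoderm genes, 4 rose and 1 fell in p400 KD, and 5 rose and 0 fell in Tip60 KD. Pluripotency had 5 up and 4 down of 20 in p400 KD and 4 up and 2 down in Tip60 KD. Cell cycle inhibitors had 3 up and 4 down of 11 in each knockdown, and feeder fibroblast genes had 5 up and 2 down of 10 in p400 KD and 4 up and 1 down in Tip60 KD. Each of these 6 lists had genes called higher in p400 KD and genes called higher in Tip60 KD. The summed signal of the 15 primitive endoderm markers was 89666 to 96310 on the Tip60 KD arrays, against 79687 to 88158 on the EGFP arrays, and their median p400 KD ratio was 0.68. The 14 feeder fibroblast markers summed to 28172 to 32748 in Tip60 KD, against 25463 to 29894 in EGFP control, with a median p400 KD ratio of 0.10. Their part in the members' values was not tested.

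Some members had p400 KD means that the dye orientation divided. For 13 member probes the mean ratio of the Cy5 arrays (replicates 1 and 3) and that of the Cy3 arrays (replicates 2 and 4) differed by more than 1 on the log2 scale, beside 1.1% of eligible probes, and all 13 were higher with p400 RNA in Cy5. Without them 184 member probes remain, a count added after the data were seen. At or below 0 on 1 or more p400 KD arrays were 7 probes, those of Grn, Lars2, Pigt, Ptprz1, Syt10, Slc4a7 and Rmrp.

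Among probes with an EGFP mean of at least 15, 9 of 14 members differed by dye in this way, beside 7.6% of eligible probes at that level. Lars2, a mitochondrial leucyl-tRNA synthetase, had p400 KD ratios of 3.32, -0.53, 2.51 and -0.64, and Grn, the secreted protein granulin, 3.29, -0.06, 2.09 and -0.44. Ptprz1, a receptor tyrosine phosphatase, had ratios of 3.74, -0.53, 1.92 and -1.31. Each of these 3 was high on both Cy5 arrays and at or below 0 on both Cy3 arrays, and 5 member probes (Grn, Lars2, Pigt, Ptprz1 and D50494) were saturated in 1 or more array channels. Another Grn probe averaged 0.05 and another Ptprz1 probe -0.03 in p400 KD.

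Dye-divided probes of lower EGFP signal included Syt10, a synaptotagmin, Slc4a7, a bicarbonate transporter, and Rmrp, the RNA of RNase MRP. Syt10 had p400 KD ratios of 2.42, -0.49, 2.12 and -0.46, with levels of 12.83, 17.37 and 11.85 in Tip60 KD against 12.29, 12.87, 17.48 and 13.01 in EGFP control. Slc4a7 had p400 KD ratios of 1.91, -0.11, 2.18 and -0.32, with levels of 10.35, 13.55 and 9.83 in Tip60 KD against 10.55, 11.58, 12.94 and 9.94 in EGFP control. For both, Tip60 KD replicate 2 and EGFP replicate 3, which share slide 2, were above all other single-colour arrays, and the means behind the Tip60 KD difference hold both kinds of array. Rmrp had p400 KD ratios of 1.46, -0.02, 2.11 and 0.26.

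A run of 5 member probes lay within 4444 bases of chromosome 17 on build mm7, from 38061980 to 38066423, out of 7 probes of the array in that stretch. They are printed here because they lie close together and were all divided by dye. In map order they are BC071254 (38061980 to 38062039), LOC673433 (38062701 to 38062760), NAP112463-1 (38063467 to 38063828), Pigt (38065479 to 38065538) and NAP114506-1 (38066364 to 38066423). The probe named Pigt was placed there by the file, whereas the RefSeq Pigt gene lies on chromosome 2 of GRCm38.p6. The promoter on chromosome 2 was still counted among the members' promoter windows. The 60-base probes read as follows, in lower case because no motif was marked.
BC071254: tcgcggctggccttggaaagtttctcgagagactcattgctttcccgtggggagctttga
LOC673433: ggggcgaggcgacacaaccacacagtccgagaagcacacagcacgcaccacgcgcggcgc
NAP112463-1: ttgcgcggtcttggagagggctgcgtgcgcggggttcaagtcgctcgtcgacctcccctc
Pigt: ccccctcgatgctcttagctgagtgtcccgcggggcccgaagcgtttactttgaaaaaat
NAP114506-1: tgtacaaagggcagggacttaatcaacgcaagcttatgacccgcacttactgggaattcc
On p400 KD replicates 1 to 4, BC071254 had ratios of 1.80, 0.87, 1.86 and 0.75, LOC673433 1.37, 0.51, 1.81 and 0.44, and NAP112463-1 1.80, 0.31, 1.81 and 0.32. Pigt had 3.28, -0.70, 2.28 and -0.36, and NAP114506-1 1.20, 0.09, 2.34 and 0.18. Every Cy5 array was above every Cy3 array at all 5 probes. In single colour NAP112463-1 read 15.60, 16.54 and 15.68 in Tip60 KD against 15.48, 15.66, 16.46 and 15.59 in EGFP control. BC071254 read 15.46, 15.74 and 15.53 in Tip60 KD against 15.31, 15.39, 15.61 and 15.38 in EGFP control. Tip60 KD replicate 2 and EGFP replicate 3 were the highest arrays of their groups at 4 of the 5 probes. At the fifth, Pigt, which has saturated channels, they were the lowest, at 18.58 in Tip60 KD and 18.59 in EGFP control. Among the non-members of the stretch, LOC673334 had p400 KD ratios of 1.64, -0.20, 1.68 and -0.43. A second Pigt probe, with an EGFP mean of 7.53, had 0.07, 0.36, 0.18 and -0.15. The 5 member probes count as separate genes because their names differ, and whether they measure the same RNA was not tested. Another member, annotated in the file as ribosomal RNA (J00623), had p400 KD ratios of 1.58, 0.22, 1.93 and 0.04. Whether labelling or the knockdown sets these ratios was not tested.

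**Figure D4:**
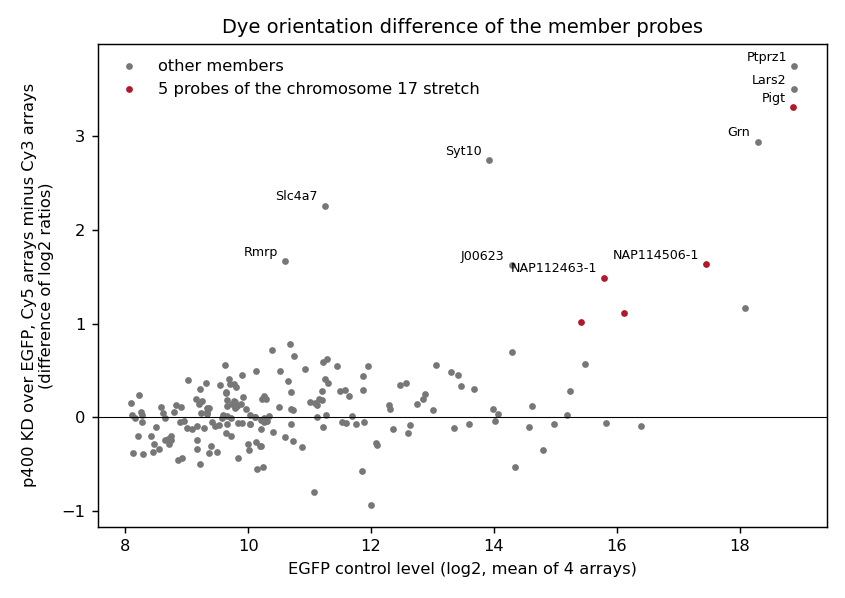
The x axis gives the EGFP control level of each member probe (log2, mean of 4 arrays) and the y axis the p400 KD ratio of the 2 Cy5 arrays minus that of the 2 Cy3 arrays (log2). Most members lie within 1 of the zero line, and 13 probes lie above 1, with the 5 chromosome 17 probes in red and the largest differences at the highest EGFP levels.

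Membership was often a property of a probe and not of every probe of the gene. Another probe with an EGFP mean of at least 8 existed for 74 member genes, 103 probes in all. Their median p400 KD ratio was 0.37: 11 were at least 0.8, 55 lay between 0.25 and 0.8, 34 within 0.25 of 0 and 3 below -0.25. In 28 of the 74 genes at least 1 such probe was at 0.25 or lower. Nup155 was the member with the largest p400 KD ratio among these, and its other probes averaged -0.14 and -0.31 in p400 KD. The other Upf2 probes averaged -0.07 and -0.20, and that of Rc3h1, an RNA-binding ubiquitin ligase, -0.03. Naa30, an N-terminal acetyltransferase, had other probes at 0.075 and 0.502. Among genes named by role, Cdc27 (0.315), Cand1 (0.42), Spry2 (0.488) and Mycn (0.53) had another probe below the limit of 0.8. Alas1 (0.937) and Slc5a4b (1.252) had another probe above it. Of the 11 probes at 0.8 or above, 10 missed membership on the higher side of the Tip60 KD window and 1, of Myh7, on the lower side. Rexo1 had a second probe at 2.79 in p400 KD with a Tip60 KD difference of 2.11, and Atf2, a bZIP transcription factor, one at 2.42 with 1.09. For these 2 genes another probe was thus higher in both knockdowns. In 15 genes 2 or more probes were members, among them Phc1, Id2, Lmo4, Pdlim5, Dnmt3a, Sox11 and Bclaf1. The last 3 of these also had a probe below 0, at -0.18 for Dnmt3a, -0.12 for Sox11 and -0.09 for Bclaf1.

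**Figure D5:**
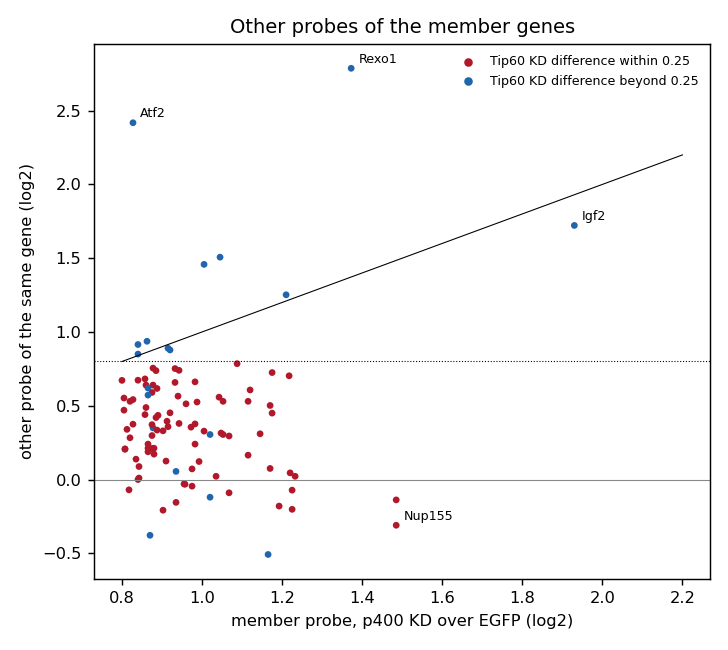
For each other probe of a member gene with an EGFP mean of at least 8, the x axis gives the p400 KD ratio of the gene's highest member probe and the y axis that of the other probe (log2, mean of 4 arrays), with the colour showing whether its Tip60 KD difference was within 0.25. Most of the 103 probes lie below the line of equal ratios, 11 at or above the dotted line at 0.8, and those of Nup155 lie below 0.

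Tip60 KD replicate 3, which the rule did not use, was compared with the EGFP mean. Of 197 member probes 166 lay within 0.25 of it, or 84.3%, beside 71.8% of the 13626 eligible probes in the same Tip60 KD window. The median difference was 0.08 in the members and -0.11 over eligible probes. At least 0.8 above the EGFP mean were 2 members, beside 2.19% of eligible probes. They were Cdkn2aip, a protein that binds the ARF tumour suppressor, at 4.04, and Phactr1, a phosphatase and actin regulator, at 1.64. Cdkn2aip read 8.68, 8.54 and 8.73 on Tip60 KD replicates 1, 2 and 4, against 8.48, 8.49, 8.38 and 8.30 on the EGFP arrays. These values come from a single array with no replicate, set against EGFP arrays that the rule also used.

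Values just inside and outside the limits of the rule were close. At the p400 KD limit of 0.8, Med10 and Sirt1 were inside at 0.80, and probes of Cul5 at 0.797 and of 2 names without a symbol at 0.798 and 0.797 were outside. At the upper Tip60 KD limit, Fam171b (0.25), Atp2a2 (0.249) and Pik3r1 (0.248) were inside, and Igf2 (0.251), Nrip1 (0.252) and Snx5 (0.253) had probes outside. At the lower limit, Rbm28 (-0.24), the clone AK039851 (-0.238) and Cdh4 (-0.21) were inside, while Myh7 (-0.293), Egr1 (-0.383) and Ankrd11 (-0.395) had probes outside. Egr1, an immediate early factor related to Egr4, averaged 0.90 in p400 KD. At the EGFP limit of 8, Phactr1, Dhh and Lrrk2 were inside at 8.09, 8.11 and 8.12, and Pdzd2, Sox18 and Irx2 were outside at 7.90, 7.88 and 7.88.

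By chromosome the member genes were spread over the genome. Chromosome 2 held 17 of them (9.39%, beside 7.83% of genes with an eligible probe), chromosome 10 held 15 (8.29% beside 4.65%) and the X chromosome 12 (6.63% beside 3.60%). Chromosome 4 held 12 (6.63% beside 6.65%), and shares were below the eligible share on chromosomes 5 (3.31% beside 6.34%), 8 (2.21% beside 5.31%) and 11 (5.52% beside 8.39%). Outside the chromosome 17 stretch, no member genes other than Pim2 and its transcript model had probes within 100000 bases of each other. These shares are descriptions with no test.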

How the data were processed

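RNA was measured on Agilent mouse arrays in 12 samples, read with Feature Extraction 9.5.1.1 per the file headers, with probe positions on build mm7. The deposited scanner files hold spot intensity (mean, median, background and processed signal) and, on two-colour arrays, a LogRatio, which per the file headers is the log10 ratio of red over green. Log2 values also stand in the deposited matrix of the series, and their normalization is not given in the sources used here. Its p400 KD columns ran as knockdown over EGFP, since their r with the log10 LogRatio turned sign with the labelled dyes (0.816, -0.815, 0.823 and -0.797 for replicates 1 to 4). Its single-colour columns followed the log2 median signal (r of 0.999 to 1).

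The rule was applied to the matrix. Separately, two-colour signals were corrected with normexp (offset 50) and loess, and log2 processed signals of single-colour arrays had their own 75th percentile subtracted. A probe was tested where at least 3 arrays of 1 of the RNAs had it well above background, with limma 3.58.1 in R 4.3.3, two-sided, with Benjamini-Hochberg adjustment over all probes tested and a threshold of 0.05; the p400 model had a dye term. Control spots were left out. Probes of a gene count as 1 gene, the one with the highest p400 KD mean standing for it. All probes were named by accession, symbol or synonym in RefSeq tables, or kept the file's name (8458). Promoter windows come from RefSeq, GRCm38.p6. Every member with a symbol could be named, and values on every array were given for the 12 members with the largest p400 KD mean, the members of a gene list and the 3 with the smallest mean. Others were chosen after their values were seen. The members, lists and tests were chosen with earlier results of these data known. The design calls the replicates biological. The number of arrays limits the precision, and the fits were tested on simulated data.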

Additional observations from a re-analysis of the deposited data

Results flagged for a closer look

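In 42 groups of 4 arrays of the 21 genes described in full, 2 had an array far from the other 3, and chance flags about 1 in 20 such groups. For 3830417A13Rik in p400 KD it was replicate 3 at 2.23, above the other ratios of 2.03 to 2.05, and for Lor in p400 KD replicate 4 at 1.26, below ratios of 1.61 to 1.64. On Tip60 KD replicate 3, which the rule and the comparison as reported left out, 3 member genes stood more than 0.8 from the EGFP mean. Cdkn2aip was 4.04 above it and Phactr1 1.64 above it, and Slc4a7 was 1.33 below it, at -1.33. For Slc4a7 the other Tip60 KD and EGFP arrays ranged from 9.83 to 13.55.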

How the results depend on the processing

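The number of member probes, 197, followed the limits of the rule: 493 at a p400 KD mean of 0.6, 69 at 1.0, 101 with a Tip60 KD window of 0.15 and 435 with 0.5. Applied to the loess ratios and percentile-scaled levels the rule gave 129 probes, of which 125 were members. Leaving out 1 replicate gave 166 to 231, and without p400 KD replicate 3 155 of the members remained. The member median in p400 KD, 0.87, was 0.651 with median centring and 0.797 to 0.953 with 1 replicate left out. Scaling the p400 arrays to a common spread left 3398 probes called and 126 members called; leaving out 1 replicate gave 4610 (without replicate 2) to 8407 probes and 196 to 197 members. Of the Tip60 KD probes called, 5743, there were 2247 with a replicate block, 2241 on slide 2 only and 3635 with no filter, and 3984 to 4763 with 1 replicate left out. The number of members called in Tip60 KD was 40, all higher. It was 14 with normexp and quantile normalization (1 of them lower), 12 on series matrix values (1 of them lower), 7 with no filter, 0 on slide 2 only (2 Tip60 KD and 2 EGFP arrays; 49 had an unadjusted p under 0.05 in limma) and 8 to 30 with 1 replicate left out: 15, 24 and 8 without Tip60 KD replicate 1, 2 or 4, and 20, 30, 21 and 20 without EGFP replicate 1, 2, 3 or 4. With a replicate block 0 members were called and 37 had an unadjusted p under 0.05 in limma. Same-numbered arrays correlated at -0.249, -0.3 and -0.109, but all of these pairs were on different slides. Other pairs on different slides correlated at -0.338, -0.288 and 0.041. Whether the numbers pair the samples cannot be told from these values. The member median in Tip60 KD, 0.149, was 0.128 on matrix values, 0.174 on slide 2 only and 0.145 to 0.166 with 1 replicate left out. Median p400 and Tip60 directions of the members did not reverse under any alternative run. The rule chose the members on the same arrays, so nothing is read from the kept directions. The cause of the shifts between settings was not tested.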
